A study of Mus musculus with 30 samples.

Results

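GFPneg CCR2high macrophages from glioma-bearing brains were compared with Ly6Chigh monocytes from the blood of the same tumor-bearing animals. The members were chosen by their sample titles, which named 4 macrophage libraries, from mice 22, 23, 24 and 26, and 3 blood libraries, from mice 22, 23 and 24. These 7 libraries were part of 30 libraries in the series, which covered 8 sorted populations and 4 mice. Every mouse was a C57BL6.CCR2RFP/WT heterozygote of 12 to 18 weeks, so in every library 1 Ccr2 allele carried red fluorescent protein, and every mouse bore a GL261.BpalmGFP tumor in the striatum. GL261 is a mouse glioma cell line, and this derivative anchors green fluorescent protein (GFP) in its membranes, so that a host cell that takes up tumor membrane becomes GFPpos. The macrophages compared here were GFPneg: they were sorted from enzyme-treated brain as CD11bhigh CD45high cells by F4/80, Ly6C and the red CCR2 reporter, whereas the blood cells were sorted as CD45high CD115high CD11clow Ly6Chigh. No mouse without a tumor was included, and the tumor was a single transplanted cell line.

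Ly6Chigh monocytes are short-lived cells that leave the bone marrow and the blood through the chemokine receptor CCR2 and enter inflamed tissue. In tissue they can lose the genes of the circulating state and take up those of macrophages, among them genes for phagocytosis, antigen presentation and the secretion of chemokines. In gliomas such cells form, with the resident microglia of the brain, a large part of the tumor's immune cells. The comparison addressed how a population with macrophage markers inside the tumor differed from the circulating population from which infiltrating cells are thought to derive.

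RNA was measured as read counts per gene in libraries amplified from low input, and levels are given here as counts per 1000000 (CPM) after scaling by the trimmed mean of M values (TMM). Values per animal are listed in the order mouse 22, 23, 24 and 26 for macrophages and mouse 22, 23 and 24 for blood, and errors are the SD over mice. The macrophage libraries held 1688256 to 4688949 gene counts and 12947 to 15149 detected genes, and the blood libraries held 1695446 to 4394847 counts and 10935 to 13620 genes. Within a population, the libraries correlated with a Spearman's rho of 0.853 to 0.937 (macrophages) and 0.944 to 0.947 (blood) across genes. Libraries of mice 22, 23 and 24 held no read of Xist, the RNA of the inactive X chromosome, and 115 to 164 CPM in sum of the Y-linked genes Ddx3y, Eif2s3y, Kdm5d and Uty. The macrophages of mouse 26 held 42.5 CPM of Xist and no Y-linked read, and no blood library came from that mouse, so counts are also given without it. The study's methods describe as many male as female mice, which these reads do not match. A count of 0 to 3 reads in a library was treated as the floor, which corresponded to a mean of 1.36 CPM in blood and 1.16 CPM in macrophages, and it covers counting error only.

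The genes of the sort were read first, as a check of the labels and not as a result. Ly6c2, the Ly6C antigen of classical monocytes, whose reads may be shared with its near-identical neighbor Ly6c1, measured 222, 205, 214 and 147 CPM in macrophages and 964, 1273 and 1291 CPM in blood. Ccr2 measured 213, 313, 143 and 304 CPM in macrophages and 1890.4, 2384 and 1906 CPM in blood, 8.46-fold lower in the macrophages sorted as CCR2high (log2 fold change -3.08, SE 0.46, adjusted p = 2.4e-05). The CCR2high gate was set among brain cells on the red reporter protein, not on Ccr2 RNA. Itgax, which encodes CD11c and was selected against in blood, was 416 ± 110.1 against 21.04 ± 20.5 CPM. Itgam (CD11b, 497 ± 259 against 744 ± 347 CPM), Csf1r (CD115, 2861 ± 410.1 against 3563 ± 145 CPM) and Adgre1 (F4/80, 516 ± 156 against 439 ± 56.2 CPM) did not pass the test.

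Markers of other cells that a brain or blood sort can hold were also read before the comparison. All 8 tested microglia markers were higher in the macrophages, with a summed level of 1723 to 3665 CPM in the macrophages and 23.8 to 57.4 CPM in blood. Tmem119 measured 662, 546, 954 and 532 CPM in the macrophages against 3.37, 7.03 and 6.90 CPM in blood, and Siglech 108, 89.8, 286 and 56.5 CPM against no read in blood. Of 13 T and NK cell markers 12 were higher, 7 with the spike-in scaling (1011 to 3033 CPM in the macrophages and 25.2 to 206 CPM in blood), among them Gzmb at 547 ± 318 against 1.17 ± 1.13 CPM and Cd3g at 107 ± 54.2 against 10.8 ± 12.99 CPM. Of 9 dendritic cell markers 6 were higher (474 to 1218 CPM in the macrophages and 100.2 to 219 CPM in blood), including Ccl22, Ccr7 and Fscn1. Mouse 24 had the highest summed level of all 3 lists among the macrophages. Blood here means the Ly6Chigh monocytes. In Ly6Clow blood monocytes of mice 22, 23 and 24 the T and NK cell markers summed to 1854, 1285 and 1088 CPM. The dendritic cell markers summed to 584, 1895 and 1294 CPM there, and the microglia markers to 132, 118 and 43.5 CPM. Astrocyte markers reached 31.5 to 60.8 CPM in the macrophages and 0 to 1.46 CPM in blood, with 4 of 5 tested members higher, and oligodendrocyte markers had 3 higher and 1 lower (Mbp) of 5. Endothelial markers had 4 of 6 higher, but 2 when any 1 of the 3 blood libraries was left out. Neutrophil markers had 0 higher and 1 lower of 11 (Mmp8), or 4 lower with mouse as a block, B and plasma cell markers 1 higher of 8 (Igkc), or 3 with the block, and platelet markers 1 of 3 (Pf4). Over all tested genes 12.7% were higher and 5.14% lower, and the 12.5% of the B and plasma cell markers was near that share. Erythroid and neuronal markers had no member called, of 4 and 2 tested. Fibroblast and pericyte markers also had 0 of 7 called by edgeR (3 with the block and 5 by DESeq2), and their summed level was uneven, 3.92 to 467 CPM in the macrophages and 0.836 to 7.61 CPM in blood, with the highest value in mouse 26. The part of these other cells in the results below was not tested, and in bulk RNA a change in the number of cells of a type cannot be told apart from a change in RNA per cell.

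**Figure D1:**
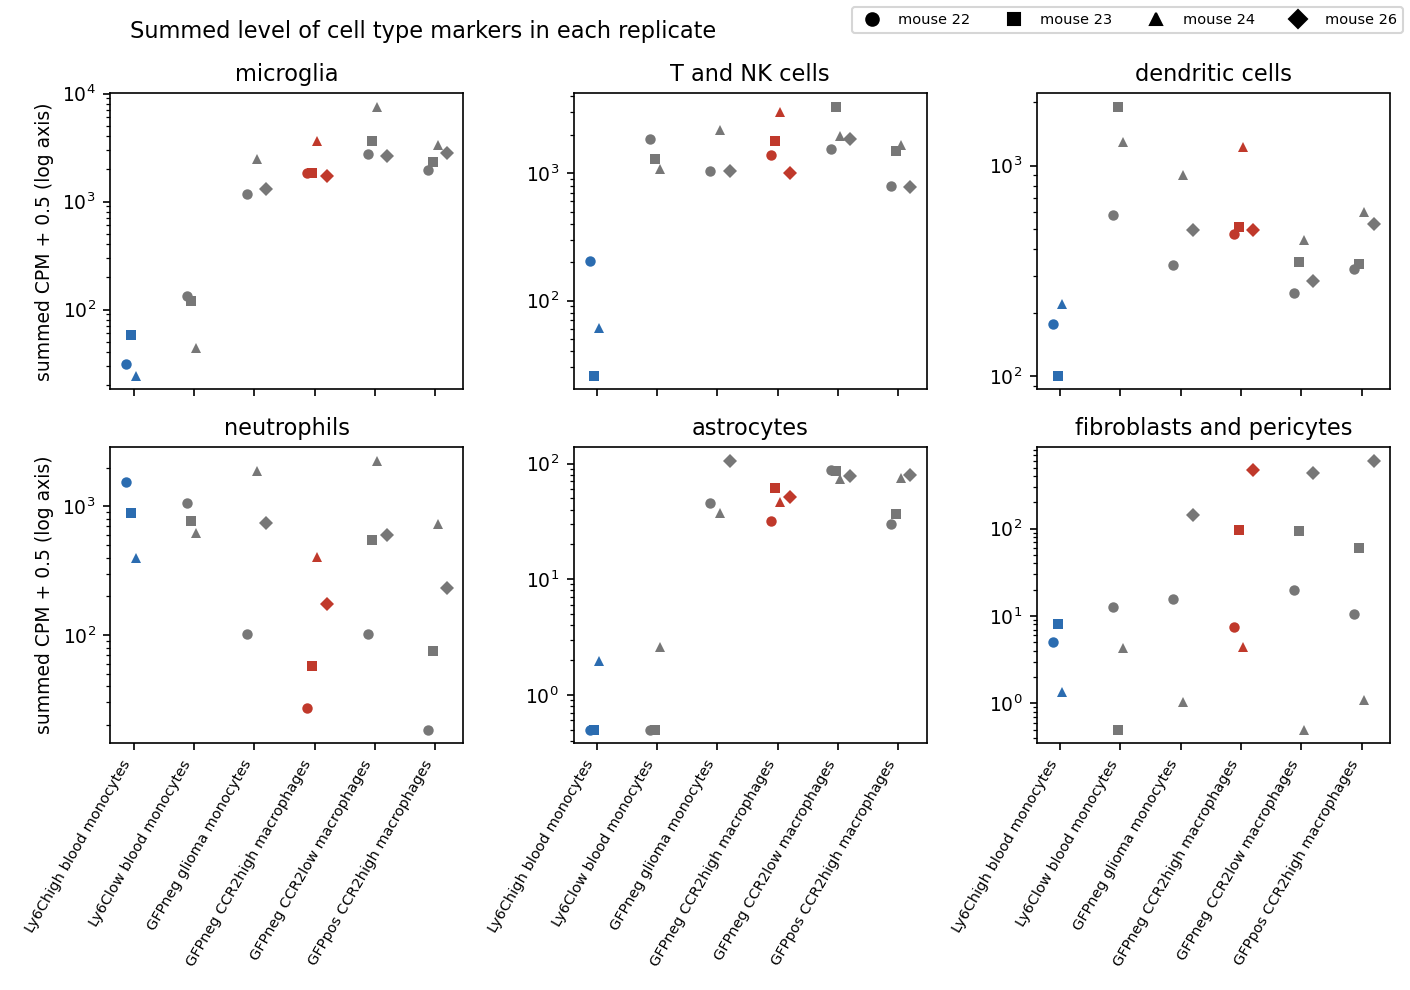
Summed CPM (plus 0.5, log axes) of 6 marker lists in each replicate of 6 populations, with 1 point per mouse and the shape giving the mouse; blood Ly6Chigh monocytes are blue, CCR2high macrophages red and other populations grey. Microglia, T and NK cell and astrocyte markers of all 4 macrophage replicates lie above those of the Ly6Chigh blood replicates, while neutrophil markers overlap.

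Of 11566 genes tested, 2060 (17.8%) differed at an adjusted p under 0.05 by edgeR's quasi-likelihood test, fitted over all populations. In the macrophages 1466 genes (12.7%) were higher and 594 (5.14%) were lower, and 1925 of the called genes (16.6% of those tested) differed by at least 1 on the log2 scale. For 4129 genes (35.7%), 1970 of the called ones (17%) among them, every macrophage replicate lay on 1 side of every blood replicate. Scaling by the added spike-in RNA left 467 genes higher and 56 lower with nearly the same median log2 fold change (0.15), and 89.3% of the calls were higher (71.2% with TMM). Spike-ins made up 0.290 to 1.26% of gene and spike-in counts in blood and 0.419 to 0.632% in the macrophages. They reached 13.3% in a Ly6Clow blood replicate of the same fit. Whether calls were lost to this uneven share or to a smaller difference was not tested, here and for the lists below. The list counts below are to be read beside the shares over all genes, 12.7% higher and 5.14% lower. With the spike-in scaling those were 467 and 56 of 11566 genes, so a few calls in a list can lie near them. Without the macrophages of mouse 26, 1220 were higher and 566 lower. Leaving out the blood of mouse 23 gave 937 higher and 493 lower, and leaving out that of mouse 24, the deepest blood library, gave 904 and 403. The plot of mean levels shows a group of genes with no or almost no read in blood that reached 100 to over 1000 CPM in the macrophages.

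**Figure D2:**
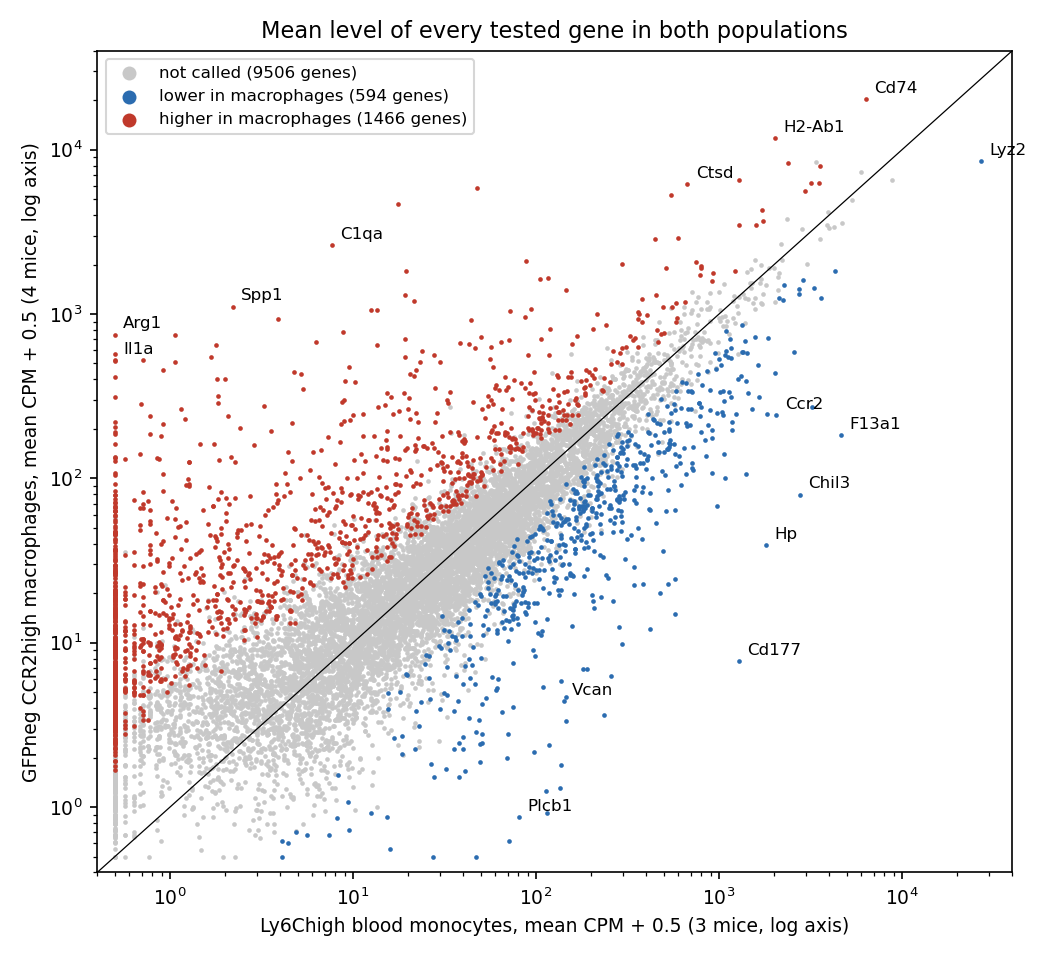
Mean CPM (plus 0.5, log axes) of each of the 11566 tested genes in 3 Ly6Chigh blood monocyte replicates (x) and 4 GFPneg CCR2high macrophage replicates (y); red genes were called higher in macrophages (1466), blue lower (594), and the line marks equal levels. Red points stand far above the line at the left edge, where blood held no reads and blue points lie below it.

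Genes of the classical monocyte were lower as a group. Of 21 tested members of that list, 17 fell and none rose (10 fell with the spike-in scaling), with a median log2 fold change of -3.08 against 0.15 over all genes, and the summed level was 2292 to 3990.1 CPM in the macrophages and 21057 to 28924 CPM in blood. Ly6c2 and Ccr2, both genes of the sort, were among the 17. Cd177, a surface glycoprotein best known from neutrophils, measured 0.631, 18.8, 4.90 and 4.57 CPM in macrophages and 894, 1763 and 1202 CPM in blood (163-fold lower; log2 fold change -7.35, SE 1.27, adjusted p = 0.00013). Hp, the hemoglobin-binding plasma protein haptoglobin, measured 40.996, 29.7, 6.86 and 77.1 CPM against 2211, 2256 and 981 CPM (log2 fold change -5.54, SE 0.63, adjusted p = 4.9e-07). Both genes were chosen among those without overlap with blood, and the macrophage libraries differed among themselves by more than 10-fold. Chil3, a chitinase-like lectin, fell from 2778 ± 2370.2 to 79.1 ± 53.1 CPM, and F13a1, the catalytic subunit of coagulation factor XIII, from 4637 ± 529.8 to 183 ± 176 CPM. With the spike-in scaling the adjusted p of F13a1 was 0.055. Fn1, fibronectin, measured 144, 252, 26.4 and 661 CPM in macrophages and 1466, 3158 and 5032 CPM in blood. Its macrophage values spanned from mouse 24, the lowest, to mouse 26, the highest, and its adjusted p rose to 0.064 without the blood of mouse 24 and to 0.10 with the spike-in scaling. S100a4, a calcium-binding protein (28.2 ± 12.5 against 341 ± 108 CPM), and the interleukin 17 receptor subunit Il17ra (64.1 ± 41.6 against 571 ± 140.2 CPM) fell in the same way, while Ms4a4c (445 ± 63.6 against 691 ± 100.1 CPM), Clec4e, Thbs1 and Cxcr2 did not pass.

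Among called genes without overlap and at 10 CPM or more in blood, the 10 with the greatest decrease in mean log2 CPM (prior count 2) were Cd177, Serpinb10, Arhgef37, Cd300lg, Dgkg, Galnt9, Plcb1, Abca6, I830127L07Rik and Vcan. Plcb1, a phospholipase C (chromosome 2, 134786067 to 135475258, GRCm38), was at or under the floor in every macrophage library and measured 84.3, 62.7 and 94.5 CPM in blood, at least 69.2-fold higher there. Dgkg, a diacylglycerol kinase, was likewise at least 60.97-fold lower in macrophages (56.2, 58.6 and 97.8 CPM in blood), and the transporter gene Abca6 at least 40.1-fold lower (42.1, 42.8 and 54.8 CPM in blood). Vcan, the matrix proteoglycan versican, measured 0, 12.4, 0 and 3.20 CPM against 139.9, 192 and 93.4 CPM (log2 fold change -5.02, SE 1.29, adjusted p = 0.0067). Serpinb10 (0.422 ± 0.504 against 115 ± 4.27 CPM), Arhgef37 (0.802 ± 1.19 against 134 ± 75.9 CPM), Cd300lg (0.759 ± 0.928 against 113 ± 41.1 CPM), Galnt9 (1.30 ± 1.52 against 136 ± 18.5 CPM) and I830127L07Rik (3.15 ± 1.65 against 234 ± 16.9 CPM) were the others.

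Among called genes without overlap, the greatest decrease in mean CPM was that of Lyz2, which encodes lysozyme of myeloid cells. It measured 12099, 6007, 8502 and 7610.2 CPM in macrophages and 28549, 33521 and 18773 CPM in blood, 3.15-fold lower (log2 fold change -1.66, SE 0.34, adjusted p = 0.00081). Its lack of overlap was a condition of the choice. Gpx1, a glutathione peroxidase (1817 ± 216 against 4317 ± 1313 CPM), Cybb, the catalytic subunit of the phagocyte oxidase (1257 ± 313 against 3611 ± 408 CPM), the chemokine gene Ccl6 (589 ± 320.2 against 2583 ± 579 CPM) and the actin-binding coronin Coro1a (1439 ± 98.95 against 3313 ± 453 CPM) completed the 10 with F13a1, Fn1, Chil3, Ccr2 and Hp. Lyz2, Gpx1, Cybb, Ccl6 and Coro1a, as well as the sort gene Ptprc (CD45, 728 ± 85.7 against 1581 ± 426 CPM), did not pass with the spike-in scaling, although the sign of each fold change stayed negative.

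**Figure D3:**
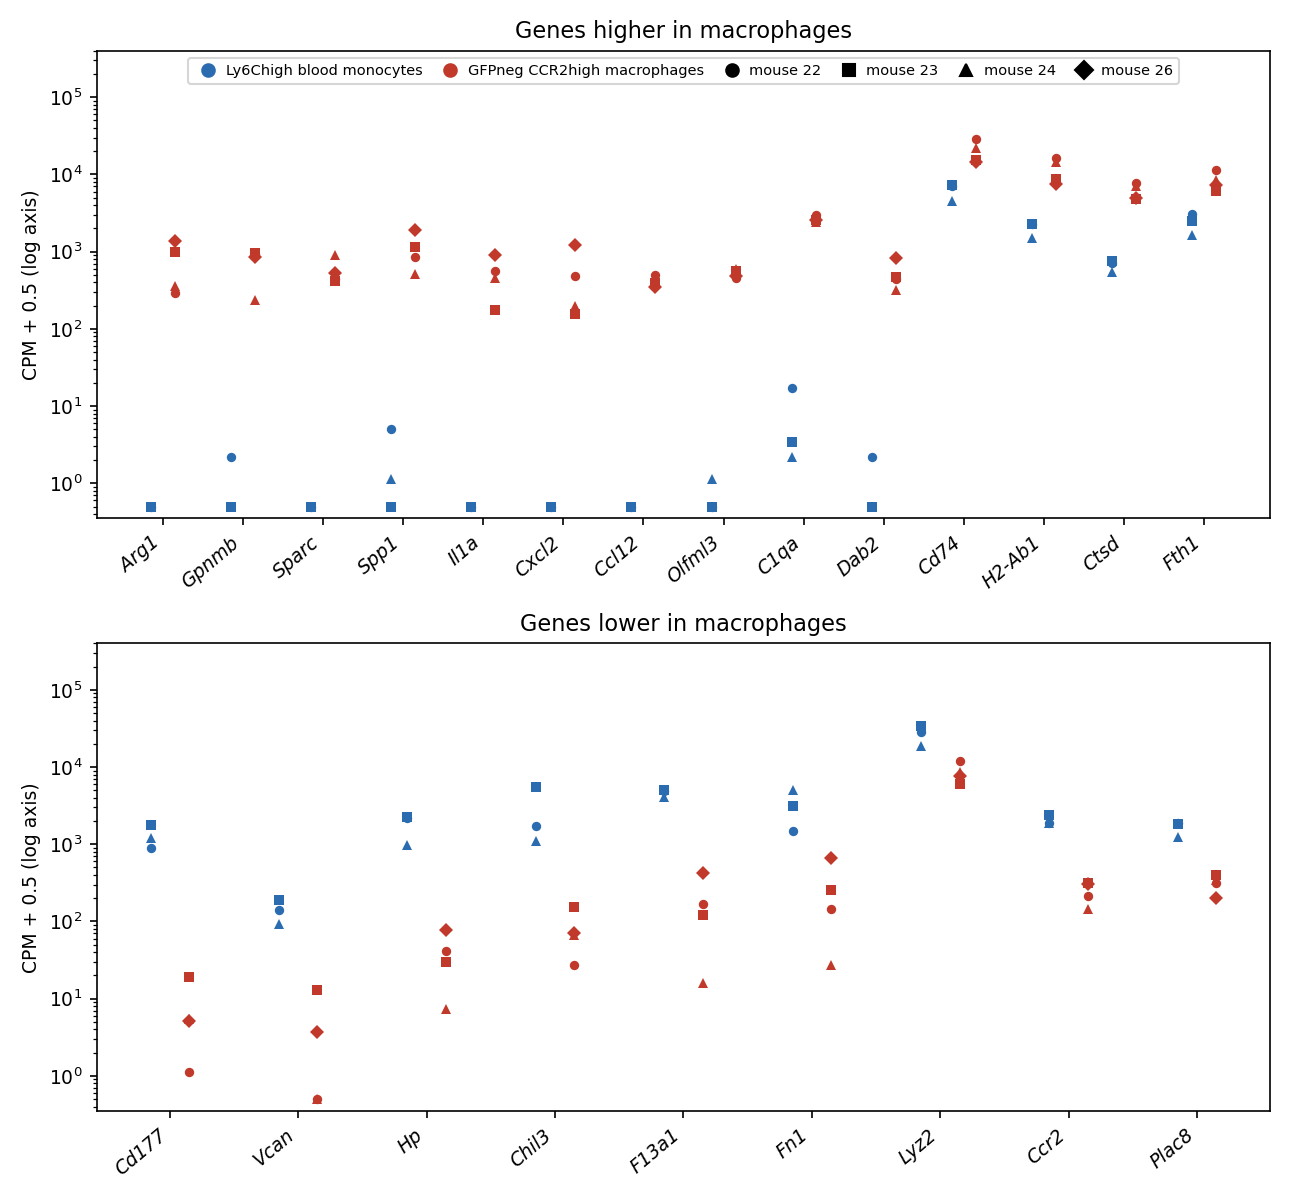
CPM (plus 0.5, log axes) of 14 genes called higher and 9 genes called lower in macrophages, with 1 point per replicate, blood Ly6Chigh monocytes in blue and GFPneg CCR2high macrophages in red, and the shape giving the mouse. Most of these genes were chosen among those without overlap, the macrophage points span more than 10-fold for Cd177, Hp and Fn1, and points at 0.5 had no reads.

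The 10 genes with the greatest increase in mean log2 CPM, chosen in the same way, were Arg1, Sparc, Il1a, Gpnmb, Olfml3, Spp1, Ccl12, Cxcl2, C1qa and Dab2. Arg1 (chromosome 10, 24915221 to 24927484), arginase 1, which splits arginine into ornithine and urea, measured 293, 987, 360.0 and 1354 CPM in macrophages and had no read in any blood library. The level in mouse 26 was the highest and that in mouse 22 the lowest, and the macrophages were at least 552-fold higher than the blood floor (adjusted p = 5.4e-06). Gpnmb (chromosome 6, 49036546 to 49070929), a glycoprotein of phagosomes and lysosomes, measured 945, 949, 236 and 842 CPM against 1.69, 0 and 0 CPM, at least 548-fold higher. Spp1 (chromosome 5, 104435118 to 104441050), the secreted glycoprotein osteopontin, measured 843, 1150.0, 507 and 1927 CPM against 4.49, 0 and 0.627 CPM (log2 fold change 9.52, SE 1.07, adjusted p = 3.9e-07). In both genes, chosen among those without overlap, mouse 24 was the lowest of the macrophages.

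Sparc (chromosome 11, 55394500 to 55423183) and Olfml3 (chromosome 3, 103722222 to 103738001) encode secreted proteins and are also abundant in microglia. Sparc measured 444, 412, 893 and 535 CPM in macrophages and Olfml3 455, 566, 596 and 485 CPM, with no read and at most 0.627 CPM in blood. Dab2 (chromosome 15, 6299788 to 6440712), an adaptor of clathrin-mediated endocytosis, measured 442, 465, 315 and 831 CPM and was at least 378-fold higher. C1qa (chromosome 4, 136895917 to 136898803) measured 2984, 2551, 2392 and 2570.0 CPM against 16.9, 2.93 and 1.67 CPM (log2 fold change 8.63, SE 0.69, adjusted p = 1.3e-09). Other brain populations held these RNAs too: Sparc measured 449 ± 87.1 CPM in GFPneg glioma monocytes and 1166 ± 634 CPM in GFPneg CCR2low macrophages, and Arg1 1137 ± 1312 and 597 ± 479.5 CPM. In Ly6Clow blood monocytes Arg1 was 0.484 ± 0.601 CPM and Sparc had no read.

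**Figure D4:**
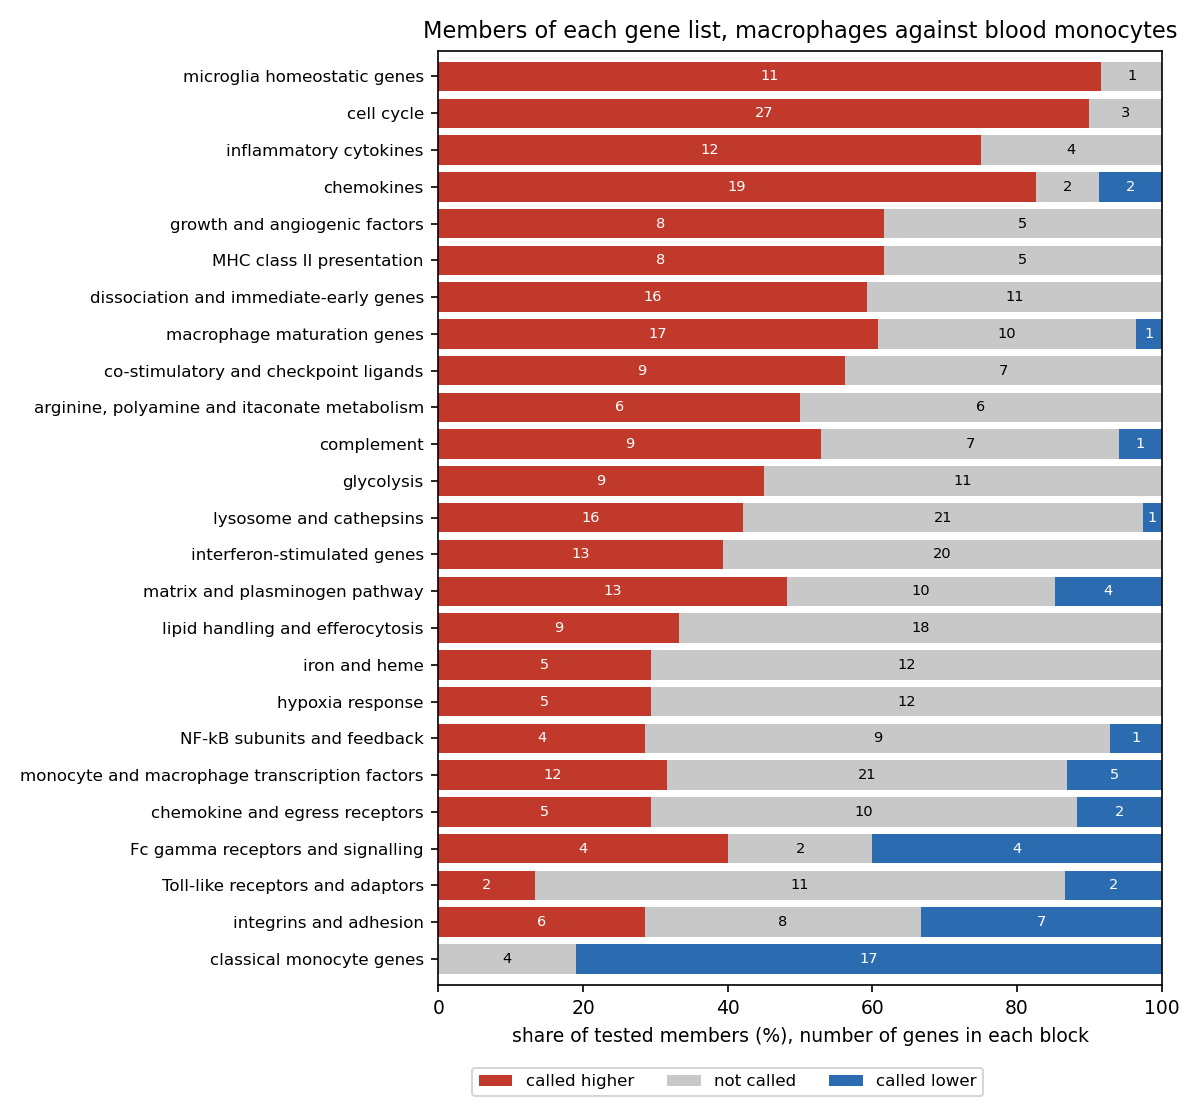
Share (%) of the tested members of 25 gene lists called higher (red), not called (grey) or called lower (blue) in GFPneg CCR2high macrophages against Ly6Chigh blood monocytes; the number in each block counts genes. Classical monocyte genes have 17 members lower and none higher, while cell cycle genes have 27 of 30 higher.

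Antigen presentation genes gave the greatest gains in mean CPM among called genes without overlap. Cd74, the invariant chain of MHC class II, measured 29045, 15579.9, 22007 and 14537 CPM in macrophages and 7076, 7319 and 4593 CPM in blood (3.21-fold; log2 fold change 1.68, SE 0.39, adjusted p = 0.0027). H2-Ab1 measured 16354, 8639.7, 14481 and 7594 CPM against 2272, 2284 and 1516 CPM (5.81-fold). Mouse 26 was the lowest macrophage library for both genes, and their lack of overlap with blood was a condition of the choice. H2-Eb1 (5307 ± 967 against 543 ± 67.1 CPM), H2-Aa (6558 ± 1275 against 1292 ± 178 CPM), the peptide-loading chains H2-DMb1 (1234 ± 324 against 378 ± 85.4 CPM) and H2-DMb2 (182 ± 64.95 against 17.6 ± 4.796 CPM), and H2-Oa (107 ± 41.7 against 3.74 ± 0.210 CPM) rose too, so that 8 of 13 tested class II genes were higher and none lower. The transactivator gene Ciita, at 128 ± 35.1 against 78.1 ± 12.2 CPM, did not pass. B2m, the light chain of class I (6231 ± 1374 against 3164 ± 449 CPM), and Ctss, the cathepsin that trims the invariant chain (7965 ± 1662 against 3549.6 ± 876 CPM), rose with adjusted p of 0.0072 and 0.0055, which became 0.055 for both without the blood of mouse 24. With the spike-in scaling 3 of the 8 class II calls remained. These gains are against Ly6Chigh monocytes only. In Ly6Clow blood monocytes Cd74 was 15462 ± 9239, H2-Aa 5018 ± 3592, H2-Eb1 3456 ± 2438 and B2m 5843 ± 1176 CPM. H2-Ab1 was 4729 ± 543 and Ctss 4018 ± 1753 CPM there. The macrophages were not tested against that population.

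Of 16 tested co-stimulatory and checkpoint genes 9 were higher and none lower, or 2 higher with the spike-in scaling. Cd274, which encodes PD-L1, measured 394, 195, 204 and 291 CPM against 19.7, 5.86 and 14.2 CPM (log2 fold change 4.34, SE 0.61, adjusted p = 9.4e-06). Pdcd1lg2, which encodes PD-L2, was 56.9 ± 19.3 against 0.4660 ± 0.426 CPM, and all macrophage values of both genes lay above all blood values, where 35.7% of all genes did not overlap. Cd86 (345 ± 24.2 against 62.2 ± 12.7 CPM), Havcr2 (183 ± 25.7 against 67.1 ± 30.2 CPM), Lgals9 (891 ± 143 against 380.2 ± 53.9 CPM) and the collagen receptor Lair1 (653 ± 117 against 156 ± 83.1 CPM) were also higher. Cd80 (13.5 ± 8.66 against 3.24 ± 1.43 CPM) and the "do not eat me" ligand Cd47 (377 ± 126 against 698 ± 79.7 CPM) did not pass.

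Complement genes rose in part, and Fc gamma genes changed in both directions. The 3 chains of C1q, the recognition unit of the classical pathway, all rose: C1qb reached 5876 ± 1059.9 against 47.03 ± 32.2 CPM and C1qc 4697 ± 881 against 17.04 ± 12.8 CPM. The anaphylatoxin receptor gene C3ar1 was 701 ± 232 against 18.7 ± 11.3 CPM, and the alternative pathway protease gene Cfb 246 ± 98.3 against 10.8 ± 7.51 CPM, whereas C3 itself (513 ± 180.3 against 891 ± 253 CPM) did not pass. In all, 9 of 17 complement genes were higher. Of 10 Fc gamma genes 4 were higher and 4 lower, or 1 and 0 with the spike-in scaling. The receptors Fcgr1 (411 ± 77.99 against 149 ± 35.7 CPM), Fcgr2b (1302 ± 246 against 451 ± 103 CPM), Fcgr4 (476 ± 111 against 57.8 ± 34.6 CPM) and Fcgr3 were the 4 that rose. The 4 that fell were the adaptor Tyrobp and the kinases Syk (81.7 ± 17.2 against 307 ± 130.2 CPM), Lyn (561 ± 76.2 against 1072 ± 49.3 CPM) and Fgr (311 ± 66.1 against 1167 ± 116 CPM). The Tyrobp call (1245 ± 278 against 2121 ± 476 CPM, overlapping) was lost without the macrophages of mouse 23 or 26 or the blood of mouse 23 (adjusted p = 0.064, 0.061 and 0.098).

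Lysosomal genes rose in part. Of 38 tested, 16 were higher and 1 (Atp6v1b2) lower, or 5 and 0 with the spike-in scaling, and the median log2 fold change was 0.58. Ctsd, the aspartic protease cathepsin D, measured 7736, 4773, 7101 and 4956 CPM against 702, 765 and 548 CPM (log2 fold change 3.19, SE 0.24, adjusted p = 5.7e-10). The cysteine proteases Ctsl (691 ± 267 against 71.1 ± 18.01 CPM) and Lgmn (1395 ± 249 against 145 ± 18.4 CPM), the tetraspanin Cd63 (931 ± 76.1 against 3.37 ± 4.46 CPM), the phosphatase Acp5 (662 ± 121 against 37.7 ± 12.6 CPM) and the alpha-galactosidase Gla (103 ± 39.97 against 19 ± 5.67 CPM) rose without overlap, where 35.7% of all genes did not overlap. The membrane proteins Lamp1 (108 ± 10.7 against 102 ± 18.8 CPM) and Lamp2 (978 ± 51.9 against 1071 ± 171 CPM) and the saposin precursor Psap (6569.5 ± 1475 against 8800.0 ± 961 CPM) were not called. Of the proton pump subunits Atp6v0d2 (9.30 ± 8.61 against 0 CPM) was higher, Atp6v1b2 lower and Atp6v1a (269.6 ± 91.7 against 296 ± 40.5 CPM) not called. Fth1, the ferritin heavy chain, measured 11285, 6134, 8583 and 7380.1 CPM against 3074, 2482 and 1620.0 CPM and was among the 10 greatest gains in mean CPM of called genes without overlap, with C1qb, C1qc, Ctsd, Ctss, B2m and the class II genes. Its adjusted p was 0.0084, and 0.065 without the blood of mouse 24.

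Because TFEB and related factors are known to bind an E-box in the promoters of many lysosomal genes, windows of 250 bases before to 50 bases after each RefSeq start were searched for CACGTG, which reads alike on both strands. Of 11144 windows of 8701 tested genes, 9.86% held it, against 10 of 39 windows (25.6%) of 29 lysosomal genes and 5 of 14 windows (35.7%) of those called. Over all genes it was in 8.45% of the windows of genes called higher and 9.21% of those of genes called lower. The called genes with a match were Ctsd, Ctsf, Ctsl, Gla and Lgmn. Uncalled lysosomal genes had it as well (Atp6v0d1, Atp6v1a, Ctsa, Glb1 and Lamp1), and Tfeb itself measured 49.3 ± 16.1 against 113 ± 15.9 CPM and did not pass. The 250 bases before the start of 3 of these genes are shown to place the E-box, in capitals. The E-box farthest upstream began 245 (Ctsd), 236 (Ctsl) and 227 bases (Gla) before the start, and Ctsd and Gla each held another. The capitals in Gla also mark a GAGGAAG, the core recognised by the myeloid factor PU.1, read on the other strand. All 3 windows are on the minus strand of GRCm38.p6: Ctsd at chr7:142387828-142388077, Ctsl at chr13:64370521-64370770 and Gla at chrX:134601006-134601255. The Ctsl window lies wholly inside the gene as annotated by GENCODE, whose 5' end is at 64370890, so it precedes a RefSeq start within the gene. The Ctsd and Gla windows lie partly inside theirs (5' ends at 142388038 and 134601125).
Ctsd: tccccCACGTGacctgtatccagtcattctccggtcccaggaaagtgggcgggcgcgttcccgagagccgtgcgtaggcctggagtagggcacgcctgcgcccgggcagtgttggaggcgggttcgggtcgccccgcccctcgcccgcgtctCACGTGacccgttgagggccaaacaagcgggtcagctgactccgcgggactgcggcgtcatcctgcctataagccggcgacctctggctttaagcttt
Ctsl: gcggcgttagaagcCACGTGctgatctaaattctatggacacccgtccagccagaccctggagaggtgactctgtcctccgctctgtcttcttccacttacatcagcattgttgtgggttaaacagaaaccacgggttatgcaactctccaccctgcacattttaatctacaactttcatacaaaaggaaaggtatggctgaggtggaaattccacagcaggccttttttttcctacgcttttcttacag
Gla: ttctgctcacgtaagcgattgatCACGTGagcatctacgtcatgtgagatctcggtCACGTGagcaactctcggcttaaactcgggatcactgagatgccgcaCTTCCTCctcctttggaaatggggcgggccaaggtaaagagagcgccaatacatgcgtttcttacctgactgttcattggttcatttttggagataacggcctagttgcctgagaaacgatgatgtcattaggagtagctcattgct

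Inflammatory cytokine genes rose, several from no read in blood. Of 16 tested, 12 were higher and none lower, 7 with the spike-in scaling, and the median log2 fold change was 3.50, or 3.54 with genes at the floor set at their bound. Il1a (chromosome 2, 129299610 to 129309972), the alarmin interleukin 1 alpha, measured 569, 176, 453 and 896 CPM and had no read in blood, at least 386-fold higher. Il1b measured 2594, 1055, 1417 and 3369 CPM against 146, 73.8 and 44.3 CPM (log2 fold change 4.59, SE 0.62, adjusted p = 5.4e-06). The receptor antagonist Il1rn (654 ± 99.6 against 42.8 ± 10.3 CPM) and the interleukin 6 family member Osm (775 ± 147 against 8.26 ± 3.01 CPM) rose as well. Il6 (5.05, 3.01, 46.04 and 15.6 CPM), Il10 (7.57, 5.82, 2.94 and 46.9 CPM) and Il12b (19.6, 27.5, 37.2 and 6.18 CPM) were low in the macrophages and had no blood read. Tgfb1 was 114 ± 56.8 against 295 ± 35.1 CPM and did not pass (adjusted p = 0.29).

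The AP-1 element TGAGTCA, searched on both strands in the same windows, was present in 3.81% of all windows, 6.07% of those of genes called higher and 4.13% of those of genes called lower. It was found in 5 of 11 windows (45.5%) of called cytokine genes, which belonged to Il1a, Il1rn, Il6 and Tnfsf13b, 4 of 8 called cytokine genes with a window. Over all tested cytokine genes 6 of 14 windows (42.9%) held it, with Lif the uncalled gene. The window of Il1a is shown since the gene had no blood read: its AP-1 element, read on the other strand, began 12 bases before the start and a GAGGAAG 41 bases before it, both in capitals (chr2:129309973-129310222, minus strand, GRCm38.p6). A match is a description of letters and not of binding.
Il1a: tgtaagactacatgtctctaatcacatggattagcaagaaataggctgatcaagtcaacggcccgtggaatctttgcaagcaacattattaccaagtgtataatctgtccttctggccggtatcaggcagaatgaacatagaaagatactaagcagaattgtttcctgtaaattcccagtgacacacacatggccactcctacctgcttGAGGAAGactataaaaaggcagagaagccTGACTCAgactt

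Most chemokine genes rose. Of 23 tested, 19 rose and 2 fell, with a median log2 fold change of 7.88, or 6.08 with floor genes at their bound. Ligands of CCR2, the receptor used to sort these cells, were among the 19: Ccl12 (chromosome 11, 82101845 to 82103400) measured 493, 389, 416 and 344 CPM with no blood read, at least 303-fold higher, Ccl7 was at least 152-fold higher (218, 179, 137 and 292 CPM), and Ccl2 was 218 ± 64.5 against 4.12 ± 3.31 CPM. The Cxcr2 ligand Cxcl2 (chromosome 5, 90903871 to 90905938) measured 479, 156, 196 and 1233 CPM, at least 381-fold above blood, or 204-fold without mouse 26, whose value was the highest. The inflammatory chemokine genes Ccl3 (239 ± 98.02 against 1.59 ± 1.38 CPM) and Ccl4 (645 ± 215 against 1.27 ± 0.769 CPM), the CXCR3 ligands Cxcl9 (442 ± 132 against 4.25 ± 4.40 CPM) and Cxcl10 (512 ± 79.9 against 29.4 ± 19.2 CPM), Ccl8 (78.2, 391.84, 89.1 and 326 CPM) and Cxcl16 (1301 ± 234 against 18.7 ± 9.41 CPM) rose without overlap, where 35.7% of all genes did not overlap. Ccl22 (104, 95.5, 376 and 69.1 CPM), a dendritic cell chemokine, was highest in mouse 24, where the dendritic cell markers, a list that holds Ccl22 itself, summed highest too. Ccl6 and Ccl9 (221 ± 175 against 1181 ± 130.4 CPM) were the 2 that fell.

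Receptors of chemokines and egress signals were mixed, with 5 higher and 2 lower of 17, 8 higher with mouse as a block, and 2 higher and 1 lower with the spike-in scaling. Ccrl2, a receptor that presents chemerin, rose to 1064 ± 490.5 against 12.98 ± 3.83 CPM, Ccr7 to 332 ± 116 against 18.5 ± 23.4 CPM and Ccr1 to 809.5 ± 106 against 205 ± 105 CPM. Ccr2, a gene of the sort, and the sphingosine 1-phosphate receptor gene S1pr5 (3.29 ± 3.84 against 64.4 ± 33.6 CPM) were lower. The count higher was 3 without the macrophages of mouse 26 or the blood of mouse 23 or 24. Cx3cr1, the fractalkine receptor, was 609.8 ± 89.8 against 697 ± 174 CPM and not called.

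Adhesion genes changed in both directions. Of 21 tested, 6 were higher and 7 lower. Itga4 (64.7 ± 17.9 against 411 ± 235 CPM), Itgb7 (242 ± 97.9 against 1049.9 ± 219 CPM) and Itgal (271 ± 48.8 against 800.3 ± 181 CPM), chains of leukocyte integrins that bind endothelium, fell together with Cd44 (263 ± 39.5 against 699 ± 151 CPM) and Spn (12.3 ± 3.09 against 50.9 ± 18.4 CPM). Vcam1, a ligand of alpha-4 integrins, had no blood read and measured 91.5, 180.3, 115 and 357 CPM in macrophages, at least 137-fold higher. Itgax, a gene of the sort, Itgb5 (75.8 ± 26.7 against 14.9 ± 2.41 CPM) and the tetraspanin Cd9 (724 ± 115 against 49.3 ± 45.9 CPM) were higher. With the spike-in scaling 3 of the 6 and 1 of the 7 passed.

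Matrix genes were split too, with 13 of 27 higher and 4 lower, and 8 higher without the blood of mouse 24. With the spike-in scaling 8 were higher and 1 lower. The collagenase Mmp13 (311, 139, 228 and 273 CPM against 0, 0 and 0.836 CPM), the elastase Mmp12 (213 ± 63.5 against 0.418 ± 0.724 CPM) and the membrane-bound Mmp14 (194 ± 108 against 3.05 ± 2.69 CPM) rose, while Mmp8, a neutrophil collagenase, fell (14.5 ± 7.58 against 578 ± 301 CPM). Mmp2 was 81.9 ± 16.8 against 0.209 ± 0.362 CPM. The genes lower were Mmp8, Fn1, Vcan and F13a1. Growth and angiogenic factors were higher for 8 of 13 tested and lower for none, or for 4 with the spike-in scaling. Vegfa measured 15.1, 26.9, 75.4 and 43.9 CPM, Pdgfc 11.4, 18.05, 21.1 and 24.9 CPM and Pdgfa 18.9, 18.8, 14.7 and 7.55 CPM, all with no blood read, and Igf1 was 32.1 ± 19.8 against 0.522 ± 0.0907 CPM. Vegfa was at least 29.7-fold above the blood floor and Pdgfa at least 11.1-fold.

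Arginine, polyamine and itaconate genes had 6 of 12 tested members higher and none lower. Nos2, the inducible nitric oxide synthase that competes with arginase for arginine, measured 32.2, 39.9, 13.2 and 135 CPM with no blood read, and the arginine transporter gene Slc7a2 18.9, 80.4, 75.4 and 111 CPM, also with none. Both genes thus rose beside Arg1 in the same libraries, at least 40.5-fold and 52.6-fold (20.96-fold for Nos2 without mouse 26, whose value was the highest). Irg1, which makes itaconate, measured 239.7, 182, 136 and 168 CPM against 0, 1.17 and 0 CPM, and Ass1, which regenerates arginine, 80.7 ± 34.3 against 7.23 ± 1.52 CPM. Arg2 (14.6 ± 7.05 against 6.48 ± 5.93 CPM) and Sat1 (674 ± 59.5 against 983 ± 239 CPM) did not pass.

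Glycolysis genes were higher for 9 of 20 tested and lower for none, but for 5 when any 1 of the 3 blood libraries was left out and for 1 with the spike-in scaling (467 of 11566 over all genes). Aldoc was 77.5 ± 25.2 against 3.69 ± 0.432 CPM, Tpi1 853 ± 309.9 against 241 ± 28.4 CPM, Gapdh 2072 ± 216 against 749 ± 175 CPM and Ldha 1958 ± 263 against 799 ± 249 CPM. Eno1 (1546 ± 149.8 against 1518 ± 326 CPM) and Pkm (2117 ± 515 against 1564 ± 192 CPM) did not pass. The hypoxia response core ACGTG, on both strands, was in 15 of 28 windows (53.6%) of glycolysis genes against 25.5% of all windows. For called glycolysis genes it was in 7 of 13 windows (53.8%). Over all genes it was in 23.5% of the windows of genes called higher and 22.2% of those of genes called lower. Hypoxia response genes had 5 of 17 higher and none lower, 3 without the blood of mouse 23 or 24 and 2 with the spike-in scaling. Mif (333 ± 80.8 against 33.2 ± 7.29 CPM) and Hilpda (122 ± 97.8 against 7.50 ± 2.44 CPM) rose, and Bnip3 (183 ± 103 against 39.97 ± 12.2 CPM) did not pass (adjusted p = 0.053) but did with mouse as a block (0.033). Iron and heme genes had 5 of 17 higher, 3 without the blood of mouse 24 or with the spike-in scaling, among them the transferrin receptor Tfrc (11.5 ± 4.34 against 0.139 ± 0.241 CPM) and the metallothionein Mt1 (279 ± 150.04 against 14.4 ± 5.89 CPM). Hmox1 (354 ± 317 against 248 ± 82.5 CPM) and the ferritin light chain Ftl1 (4200.1 ± 869 against 3947 ± 1238 CPM) did not pass.

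Lipid and efferocytosis genes changed in part. Of 27 tested, 9 were higher and none lower, or 5 lower with mouse as a block, and the median log2 fold change was 0.01. The receptor kinases Mertk (125 ± 57.6 against 0.766 ± 1.33 CPM) and Axl (1071 ± 273 against 93.03 ± 34.9 CPM), which recognise dying cells, and their ligand Gas6 (6.94, 24.3, 39.2 and 6.18 CPM, with no blood read) rose, as did the cholesterol exporter Abca1 (153 ± 142 against 13.8 ± 12.01 CPM) and the hydroxylase Ch25h (47.9, 60.8, 35.3 and 52.8 CPM, with no blood read). Apoe was 8397 ± 3378 against 3389.8 ± 862 CPM without overlap but did not pass (adjusted p = 0.052), and passed with mouse as a block (0.028). Lipa (251 ± 55.8 against 265 ± 46.2 CPM), Npc1 (34.2 ± 9.04 against 33.8 ± 7.35 CPM) and Abcg1 (36.1 ± 19.5 against 43.9 ± 19.2 CPM) were not called. Among macrophage maturation genes 17 of 28 were higher, the sort gene Itgax among them, and 1, Tyrobp, lower. Cd72 (288 ± 63.4 against 1.33 ± 1.79 CPM), Cd81 (1199 ± 261 against 21.1 ± 23.1 CPM) and the scavenger receptor Stab1 (126 ± 115 against 0.766 ± 1.33 CPM) rose with the C1q genes. Cd68 (1277 ± 91.3 against 1285 ± 207 CPM) and Adgre1, classical macrophage markers, did not pass, and Cd163 (1.96 ± 2.44 against 5.35 ± 6.30 CPM) was low in both.

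Microglia homeostatic genes were higher for 11 of 12 members, with a median log2 fold change of 7.27, or 4.78 with floor genes at their bound. P2ry12, a purinergic receptor, measured 299.6, 288, 998 and 149 CPM against 11.2, 35.7 and 12.8 CPM. Fcrls measured 143, 192, 322 and 394 CPM against 1.12, 0 and 0.836 CPM, and the transcription factor Sall1 3.15, 6.82, 11.8 and 15.1 CPM with no blood read. Mouse 24 was the highest or second highest macrophage library for these 3 genes, and none of the 3 overlapped with blood, where 35.7% of all genes did not overlap. The summed microglia markers were 1167 to 2478 CPM in GFPneg glioma monocytes and 2656 to 7509 CPM in GFPneg CCR2low macrophages. Within a mouse, the GFPneg CCR2high macrophages lay above the GFPneg glioma monocytes in 3 of 3 mice and below the GFPneg CCR2low macrophages in 4 of 4. The GFPpos populations kept this order in part. GFPpos glioma monocytes measured 2317, 2732 and 2093 CPM in mice 22, 24 and 26. They lay above the GFPpos CCR2high macrophages in mouse 22 (1952 CPM) and below them in mice 24 and 26 (3349 and 2807 CPM). Across GFP states, they lay above the GFPneg CCR2high macrophages in mice 22 and 26. In mouse 26 GFPpos CCR2low macrophages (2634 CPM) lay below GFPpos CCR2high macrophages (2807 CPM), and above them in the other mice.

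Toll-like receptor genes and adaptors had 2 of 15 higher (12.7% of all genes were), Tlr3 (48.9 ± 9.33 against 4.32 ± 2.98 CPM) and Cd14 (962 ± 538 against 86.8 ± 33.7 CPM), and 2 lower, Tlr7 and Irak3, or 4 lower with mouse as a block. Tlr7 was lost without the blood of mouse 22 or 24 (adjusted p = 0.057 and 0.062), and Irak3 without the macrophages of mouse 23 or 24 or the blood of mouse 24 (0.065, 0.053 and 0.073), and neither passed with the spike-in scaling. NF-kB genes had 4 of 14 higher and 1 lower, none with the spike-in scaling. The subunit Nfkb1 fell (45.8 ± 7.51 against 225 ± 61.1 CPM), and Nfkbiz (247 ± 35.5 against 16.1 ± 8.03 CPM) and the feedback inhibitor Tnfaip3 (301 ± 57.1 against 32.1 ± 17.8 CPM) rose. Interferon-stimulated genes had 13 of 33 higher (12.7% of all genes were) and none lower, or 2 with the spike-in scaling (467 of 11566 over all genes). The guanylate-binding Gbp2 (705 ± 172 against 105 ± 50.7 CPM) and the GTPase Iigp1 (381, 387, 296 and 206 CPM against 0, 0 and 3.97 CPM) rose, while Mx1 (25.5 ± 6.90 against 34.1 ± 31.9 CPM) and Oas3 (76.3 ± 31.4 against 118 ± 47.2 CPM) did not pass.

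Transcription factors of the lineage had 12 of 38 higher and 5 lower, and 1 lower without the blood of mouse 24. With the spike-in scaling 3 were higher and 1 lower (467 and 56 of 11566 over all genes). Maf (58.6 ± 14.04 against 9.56 ± 3.34 CPM), a factor of tissue macrophages, rose, as did Bhlhe40 (678 ± 182 against 63.99 ± 33.97 CPM), Egr2 (70.2 ± 25.2 against 3.33 ± 0.797 CPM) and Myc (77.1 ± 11.96 against 10.4 ± 5.78 CPM). The retinoic acid receptor gene Rara fell (31.7 ± 9.50 against 305 ± 39.5 CPM). Spi1, which encodes PU.1, was 576 ± 226 against 989.8 ± 168 CPM (adjusted p = 0.37) and Irf8 997 ± 228 against 642 ± 66.2 CPM, and neither passed. Immediate-early and dissociation genes had 16 of 27 higher and none lower, or 4 with the spike-in scaling. Fos measured 3009.7, 2195, 2968 and 3309 CPM against 279, 429.9 and 629.8 CPM, Dusp1 207, 826, 2476 and 173 CPM against 39.9, 39.2 and 52.3 CPM, and Fosb 46.1 ± 21.8 against 0.335 ± 0.302 CPM, while the heat shock genes Hspa1a (25.3 ± 14.7 against 12.8 ± 10.4 CPM) and Dnajb1 (110.0 ± 18.1 against 110.0 ± 27.6 CPM) did not pass. Brain cells were released with enzymes and blood cells were not, so the tissue and its handling cannot be told apart for any gene in the comparison.

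Cell cycle genes rose together. Of 30 tested, 27 were higher, none was lower, and all 30 were without overlap, where 35.7% of all genes did not overlap. The median log2 fold change was 4.36, or 3.93 with floor genes at their bound. Top2a, the topoisomerase that untangles DNA before mitosis, measured 71.9, 87.8, 50.9 and 139 CPM against 3.37, 0 and 0 CPM (log2 fold change 6.61, SE 1.20, adjusted p = 0.00023). Ccnb1, cyclin B1, measured 35.95, 52.9, 21.5 and 95.8 CPM against 0.562, 0 and 0 CPM, and Birc5, survivin, 48.6, 39.9, 25.96 and 75.02 CPM with no blood read. The mitotic kinase gene Plk1, also with no blood read, measured 37.2, 47.9, 21.5 and 74.1 CPM, at least 33.3-fold higher. Genes of DNA replication that blood also held rose as well, such as Mcm3 (164 ± 24.3 against 39.99 ± 7.68 CPM) and Pcna (109 ± 9.50 against 37.1 ± 3.46 CPM), while Mcm4, Aurkb and Bub1b did not pass. The count higher was 14 with the spike-in scaling.

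The macrophages were also set beside the other brain populations in the same fit. Against GFPneg glioma monocytes, sorted from the same brains of mice 22, 24 and 26 by high Ly6C, 21 of 11566 genes (0.182%) were called, all lower in the macrophages, and 622 (5.38%) had an unadjusted p under 0.05. That fit had no term for the shared mice. With mouse as a block 96 genes were called, 9 higher and 87 lower. Ly6c2, a gene of the gate, measured 222, 205, 214 and 147 CPM in macrophages and 3496, 3763 and 2857 CPM in the glioma monocytes (log2 fold change -4.10, SE 0.50, adjusted p = 0.00013). Hp measured 40.996, 29.7, 6.86 and 77.1 CPM against 467, 378 and 548 CPM (log2 fold change -3.57, SE 0.59, adjusted p = 0.0047). Plac8 measured 310.3, 394, 339 and 199.7 CPM against 2484, 3459.6 and 1523 CPM (log2 fold change -3.00, SE 0.40, adjusted p = 0.00038). In these 3 genes every glioma monocyte library exceeded every macrophage library, where 1356 genes (11.7%) did not overlap between the populations. The others of the 5 greatest differences were I830127L07Rik (23.8-fold lower, adjusted p = 0.0017) and the protease inhibitor Slpi (12.7-fold lower, adjusted p = 0.021). Slpi did not pass without any 1 of the 4 macrophage libraries or without the glioma monocytes of mouse 22 or 26 (adjusted p = 0.052 to 0.10).

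The blood level put these genes in different orders. The mean of Hp went from 1816 ± 724 CPM in blood to 464 ± 84.9 CPM in glioma monocytes and 38.7 ± 29.3 CPM in CCR2high macrophages, and I830127L07Rik from 234 ± 16.9 to 74.2 ± 19.3 and 3.15 ± 1.65 CPM. Ly6c2 (3372 ± 466 CPM) and Plac8 (2489 ± 968 CPM) had their highest means in glioma monocytes. The number of genes depended on the fit. It was 96 (9 higher and 87 lower) with mouse as a block and 93 by DESeq2. It was 6, 7, 9 and 10 without the macrophages of mouse 22, 23, 24 and 26, and 9 and 10 without the glioma monocytes of mouse 22 and 24. With the spike-in scaling it was 0, and that scaling moved the median log2 difference of all genes from -0.0058 to 0.14. Under it the log2 fold changes of Ly6c2, Hp and Plac8 were -3.92, -3.45 and -2.72, with larger SE of 0.80, 0.95 and 0.72.

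**Figure D5:**
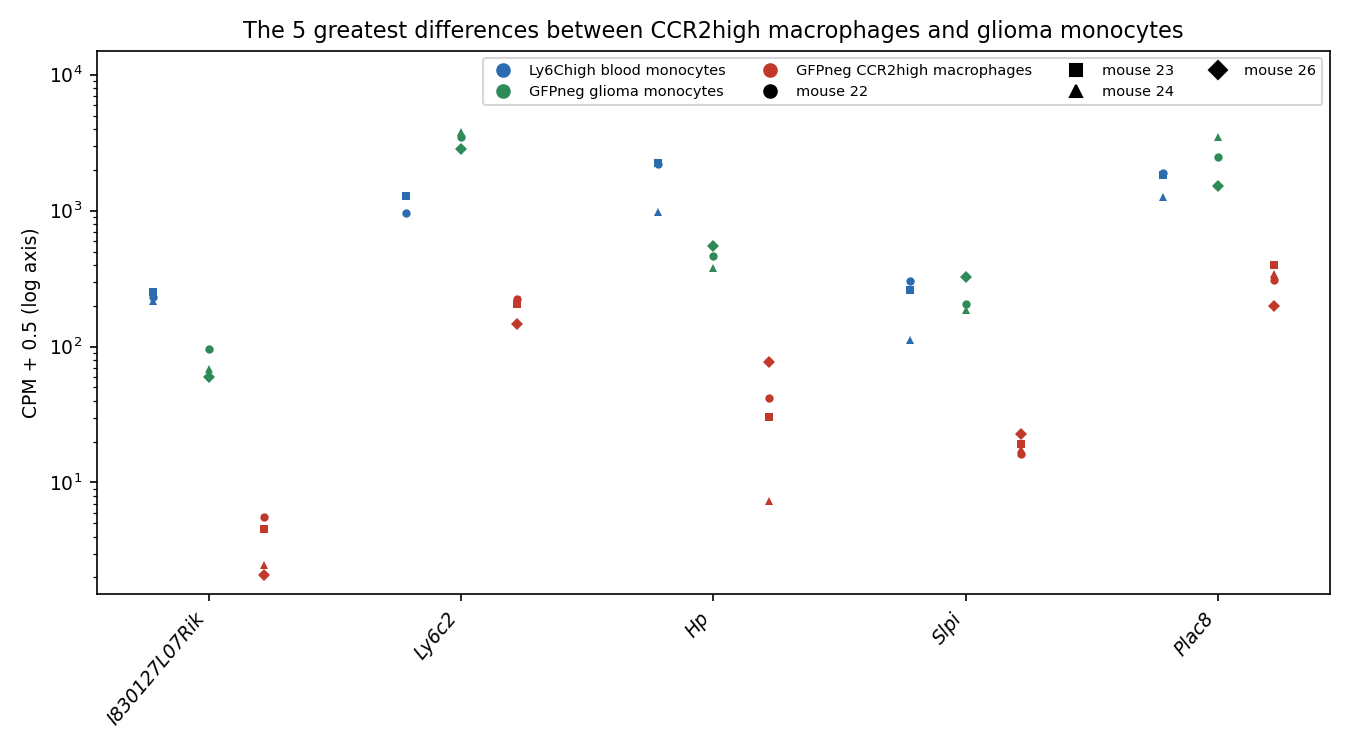
CPM (plus 0.5, log axis) of the 5 genes with the greatest difference among those called between GFPneg CCR2high macrophages (red) and GFPneg glioma monocytes (green), ordered by its size, with Ly6Chigh blood monocytes in blue and 1 point per replicate. The red points lie below the green points for all 5 genes, and the blue points lie above the green points, overlap with them, or lie between green and red, depending on the gene.

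Against GFPneg CCR2low macrophages no gene was called by edgeR, with 276 genes (2.39%) at an unadjusted p under 0.05 and 8 called by DESeq2. With mouse as a block 3 genes passed: Ccr2 (243 against 72.2 CPM, adjusted p = 0.023) and Ly6i (565 against 161.7 CPM, adjusted p = 7.1e-05) were higher in the CCR2high macrophages and the B cell receptor gene Cd79a (46.3 against 208 CPM, adjusted p = 0.023) lower. These 3 were named after their values were seen, and Ccr2 belongs to the gate. For 362 genes (3.13%) the replicates of the CCR2high and CCR2low macrophages did not overlap. Against GFPpos CCR2high macrophages, the cells of the same gate that carried tumor membrane, no gene was called by edgeR, with or without the block. There were 69 genes (0.597%) at an unadjusted p under 0.05 and 1 call by DESeq2, and 187 genes (1.62%) did not overlap. A count of 0 in these fits does not show that the populations were alike. These comparisons share libraries with the blood comparison and are not independent of it.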

How the data were processed

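RNA was sequenced from sorted cells in SMARTer Ultra Low Input libraries on a NextSeq instrument. The deposited values were unnormalised counts per gene, which the authors obtained with HTSeq against GRCm38.p3, with Picard 1.8.4 and R 3.2.3 also named in the submitters' processing notes. The strand setting was not given in the sources used here, so overlapping and antisense genes, and copies such as Ly6c1 and Ly6c2 or Fth1 and its pseudogenes, could share or lose reads. Unassigned reads (7.08 to 12.5% without a feature and 1.68 to 1.90% ambiguous in the libraries compared) and 92 spike-ins stayed out of the gene totals.

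From the count tables, libraries with fewer than 6000 genes at 5 reads or more were left out (1 of 30), and passing libraries of the same population and mouse were summed, which left 28 replicates of 8 populations. Genes passing filterByExpr were fitted in edgeR 4.0.16 (R 4.3.3, limma 3.58.1) with TMM scaling, the robust quasi-likelihood test and population as the term, and a gene was called where its p, adjusted after Benjamini and Hochberg over all genes tested, was under 0.05. Log2 fold changes are those of the fit, and CPM use TMM library sizes. Folds against a population with 3 reads or fewer in every library are lower bounds against 3 reads per library. Replicates are mice. Macrophages and blood of mice 22, 23 and 24 came from the same animals. The deviations of same-mouse pairs from their population means were not correlated (-0.047, 0.0088 and -0.042). Values with mouse as a block are given for only some of the genes and lists whose call or count they changed. A gene or list without such a value was therefore not necessarily unchanged by the block. The check of same-mouse pairs covered macrophages against blood only. The brain populations also came from the same mice, and whether their libraries deviated together over all genes was not tested, so it gives no reason to leave the block out there. In every brain population the summed fibroblast and pericyte markers were highest in mouse 26. There they were 467, 438 and 143 CPM in GFPneg CCR2high macrophages, CCR2low macrophages and glioma monocytes. In the GFPpos counterparts they were 599, 436 and 519 CPM. No other mouse exceeded 95.3 CPM in these populations. Alternatives were DESeq2 1.42.0 size factors, spike-in scaling, filters of 1 count in any or 10 in every replicate, the DESeq2 test, a fit of the compared populations alone, the mouse block and each replicate left out. A blocked fit of the 2 populations in the 3 mice that gave both was added after seeing the data. The pipeline was tested on simulated data.

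The members and gene lists were chosen with earlier results of these data known. Genes named were those of the sort, members of 25 gene lists and 12 marker lists, the 10 genes in each direction with the greatest difference in mean log2 CPM among called genes at 10 CPM or more without overlap, the 10 with the greatest difference in mean CPM, and the 5 with the greatest difference in each direction for the other brain populations. Gene positions are from GENCODE vM21 (GRCm38), where 41813 of 45317 gene symbols of the tables were found, and promoter sequences from RefSeq on GRCm38.p6. Some items named by the rules are not reported here.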

Additional observations from a re-analysis of the deposited data

Results flagged for a closer look

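In the 4 macrophage replicates, 18 of 252 values (genes given with values in the text and sums of gene lists) had 1 mouse that stood apart from the others by more than Dixon's 95% limit, and chance alone marks about 1 group in 20. Mouse 26 stood apart in 8 values, mouse 24 in 6, mouse 22 in 3 and mouse 23 in 1.

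Mouse 26 was the highest for the antiangiogenic matrix protein gene Thbs1 at 955 CPM (24 to 55.5 CPM in the other mice), the hypoxia response gene Hilpda at 269 CPM (63.1 to 80.3 CPM), the cytokine gene Il10 at 46.9 CPM (2.94 to 7.57 CPM) and the platelet chemokine gene Pf4 at 220.2 CPM (32.8 to 57.6 CPM). The summed platelet markers, which include Pf4, were 228 CPM in that mouse (35.3 to 63.7 CPM) and the summed erythroid markers 51.2 CPM (0.979 to 4.41 CPM). It was the lowest for Ass1, the argininosuccinate synthase, at 29.3 CPM (96.7 to 98.4 CPM). Xist measured 42.5 CPM in mouse 26 and 0 in the others.

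Mouse 24 was the highest for the summed microglia markers at 3665 CPM (1723 to 1844 CPM), the summed microglia homeostatic genes, which share members with them, at 6738 CPM (3706 to 3996 CPM), the summed dendritic cell markers at 1218 CPM (474 to 513 CPM) and Ccl22, a member of that list, at 376 CPM (69.1 to 104 CPM). It was the lowest for Gpnmb at 236 CPM (842 to 949 CPM). Its 0.490 CPM of Dgkg, at the floor, was the only value above 0 among the macrophages.

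Mouse 22 was the highest for Apoe at 13448 CPM (6360.5 to 6992 CPM), for the summed macrophage maturation genes, which include Apoe, at 41321 CPM (28476 to 29761 CPM) and for Cxcl16 at 1649.9 CPM (1155 to 1219.9 CPM). In mouse 23 the summed NF-kB genes were the lowest, at 4376 CPM (5439 to 5592 CPM).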

How the results depend on the processing

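Of 5 counts of called genes, those against blood (1466 higher and 594 lower) stayed within 1.5 times under DESeq2 size factors, the filter of 1 count in any replicate and the DESeq2 test. Spike-in scaling gave 467 higher and 56 lower, the filter of 10 counts in every replicate, which tested 4379 genes, 512 higher, and the compared populations alone 1092 lower. With mouse as a replicate block, 1672 were higher and 779 lower, and 2008 of the 2060 calls were shared. The blocked fit of the 3 mice that gave both populations, added after seeing the data, gave 1242 higher and 924 lower. Leaving out 1 replicate gave 904 to 1333 higher and 403 to 566 lower. Against GFPneg glioma monocytes the 21 calls became 0 with spike-in scaling, 48 with the filter of 10 counts in every replicate, 93 by DESeq2, 101 with the compared populations alone, 96 with the replicate block and 6 to 21 with 1 replicate left out. The 0 calls against GFPneg CCR2low macrophages became 8 by DESeq2 and 3 with the block, and the 0 against GFPpos CCR2high macrophages 1 by DESeq2. The cause of these changes was not tested.

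No called gene changed sign under any alternative. Over the single genes named by the rules or held in the lists, and all alternatives, 7316 results kept their side of the threshold, 384 lost it and 222 gained it. Under the block 43 of these genes gained a call, 514 kept their side and none lost a call, and 11 of 74 list counts changed by more than 1.5 times. Over all tested genes the block kept 2008 of the 2060 calls against blood, so calls outside the named and listed genes were lost. A gene at the floor in 1 population has no measured fold, and its bound depends on the depth of each library.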
